A study of Mus musculus with 6 samples.

Results

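The 9 genes *Slc6a3*, *Th*, *Ddc*, *Slc18a2*, *Nr4a2*, *Sv2c*, *Drd2*, *Gch1* and *Maob* form a group for tuberoinfundibular dopamine neurons of the arcuate nucleus (ARC). These genes were chosen for dopamine synthesis, vesicle loading, reuptake, autoreception, breakdown and cell identity. They were taken by symbol from the 24015 gene symbols counted in each library, and all 9 were found. The ARC was microdissected from adult female mice, and RNA of the whole piece was amplified and sequenced. The mice were labelled as of a mixed CD-1, 129P2 and C57BL/6 background, while for this line the methods of the study name CD-1 and 129P2 only. Controls were 3 females of genotype Esr1fl/fl, which carry floxed alleles of the estrogen receptor alpha gene without Cre. Mutants were 3 females of genotype Esr1fl/fl;Nkx2-1-Cre, in which Cre is driven by the *Nkx2-1* promoter. That promoter is active across the medial basal hypothalamus from development on, so the deletion is neither limited to dopamine neurons nor to the adult. Total counts were 14747944, 17877137 and 14046798 for control replicates 1 to 3, and 11792440, 15741681 and 15166356 for mutant replicates 1 to 3. Levels are given as CPM, the count relative to the library size, with library sizes scaled by the trimmed mean of M-values (TMM). A count of 3 stood for 0.175 to 0.248 CPM, a floor that covers counting error only.

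Tuberoinfundibular dopamine neurons convert tyrosine to L-DOPA with tyrosine hydroxylase, which needs tetrahydrobiopterin as a cofactor, and then to dopamine with aromatic amino acid decarboxylase. The vesicular monoamine transporter loads the dopamine into vesicles, and terminals in the median eminence release it into portal blood, where it holds back prolactin secretion from the pituitary. Prolactin in turn acts through its receptor on these neurons, and the dopamine transporter takes released dopamine back up.

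*Esr1*, the targeted gene, gave 64.5, 57.5 and 48.5 CPM over control replicates 1 to 3, and 11.8, 9.55 and 7.06 CPM over mutant replicates 1 to 3. Every mutant was under every control, so the labels hold for the gene they name. Its log2 fold change of mutant against control was -2.59 ± 0.18 (SE, the standard error). The adjusted *p* was 0.000884 (quasi-likelihood test of edgeR, Benjamini-Hochberg adjustment over all genes tested). The summed level of markers of the neighbouring ventromedial nucleus was lowest in control replicate 1 among controls and in mutant replicate 1 among mutants. Not every one of these markers followed that order. Control replicate 2 nearly lacked pituitary markers. The differences of the genes that were lower are therefore also given without each of these libraries.

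With that test, 18 of 15236 genes passed an adjusted *p* of 0.05 (0.118% of those tested), 9 of them lower in mutants (0.0591%) and 9 higher. Of the 9 dopamine neuron genes, all 9 passed the filter on low counts, 1 was called lower and 0 higher. The called gene was *Slc6a3*. Limma voom called 14 of 15236 genes (0.0919%), among them *Slc6a3* alone of the 9. DESeq2 called 94 of 15079 genes lower (0.623%) and 97 higher (0.643%), and among the 9 genes it called 4 lower, *Slc6a3*, *Nr4a2*, *Sv2c* and *Drd2*, and 0 higher. The libraries of both genotypes did not overlap for the same 4 genes, all lower in mutants, against 1200 of 15236 tested genes that were lower without overlap (7.88%) and 1201 that were higher (7.88%). At an unadjusted threshold of 0.05, edgeR put 5 of the 9 genes lower and 0 higher, against 611 of all tested genes lower (4.01%) and 738 higher (4.84%). The median log2 fold change of the 9 was -0.32, against 0.00 over all tested genes. Leaving out a library moved the number of all genes edgeR called to 46 without control replicate 2, 9 without mutant replicate 2 and 7 without mutant replicate 3, with 1 of the 9 among those called in each of these. P-values here measure the spread between these 3 and 3 libraries.

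**Figure D1:**
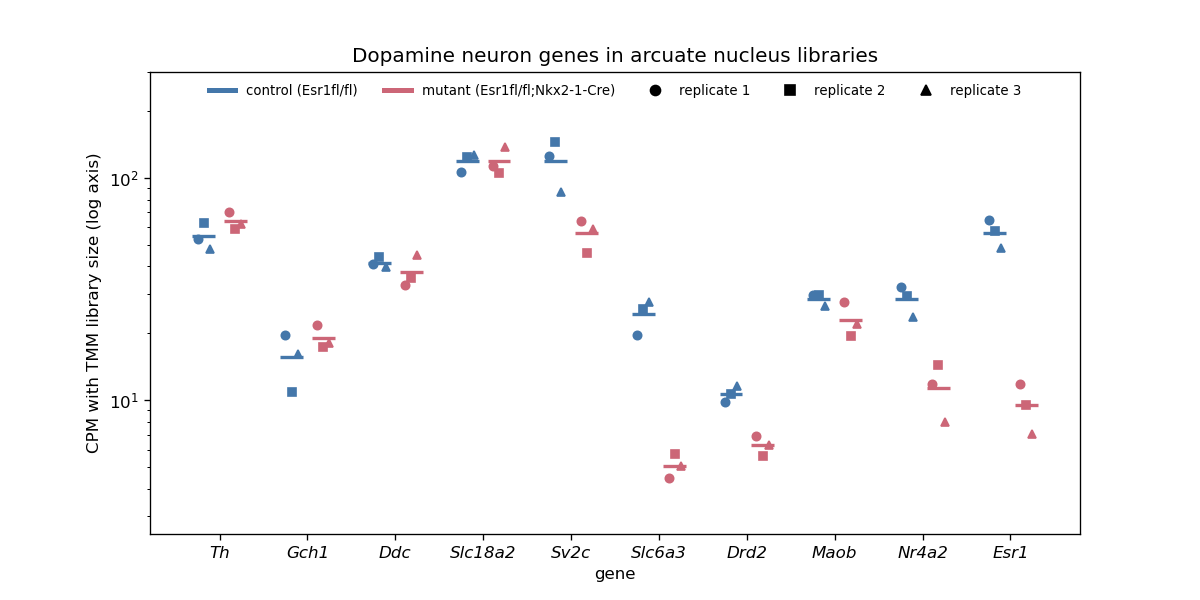
Level of each of the 9 genes and of *Esr1* in every library, in CPM on a log axis, with controls in blue, mutants in red, a marker shape for each replicate and a bar at each group mean. *Slc6a3*, *Nr4a2*, *Sv2c* and *Drd2* have every mutant library under every control library, whereas *Th*, *Ddc*, *Slc18a2*, *Gch1* and *Maob* overlap.

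Among the synthesis genes, *Th* encodes tyrosine hydroxylase, the rate-limiting enzyme. Its level was 53.4, 62.4 and 48.0 CPM over control replicates 1, 2 and 3 and 70.4, 58.7 and 62.2 CPM over mutant replicates 1, 2 and 3. Control replicate 2 lay within the mutant range, so the groups overlapped, with means of 54.6 ± 7.29 CPM for controls and 63.8 ± 5.98 CPM for mutants (SD, n = 3 each). The log2 fold change of *Th* was 0.22 ± 0.12 (SE, adjusted *p* = 0.618 with edgeR), which missed the threshold, and ran from 0.14 without control replicate 3 to 0.33 without control replicate 2. *Ddc*, for the decarboxylase that follows, was at 40.9, 44.2 and 39.7 CPM in controls 1 to 3 and at 33.0, 35.6 and 45.0 CPM in mutants 1 to 3. Mutant replicate 3 held the highest value of the 6 and the other mutants the lowest, and the log2 fold change of -0.14 ± 0.12 (SE, adjusted *p* = 0.814) was about as large as its error and ran from -0.28 without mutant replicate 3 to -0.05 without mutant replicate 1. *Gch1*, for the enzyme that starts the making of tetrahydrobiopterin, was at 19.7, 10.9 and 16.1 CPM in controls and 21.8, 17.3 and 18.1 CPM in mutants. Control replicate 2 was the lowest library for it, control replicate 1 lay among the mutants, and the log2 fold change was 0.29 ± 0.20 (SE, adjusted *p* = 0.738). With a library left out, the log2 fold change of *Gch1* ran from 0.09 without control replicate 2 to 0.50 without control replicate 1.

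For vesicle loading, *Slc18a2* encodes the vesicular monoamine transporter of these neurons. It stood at 106.5, 124 and 127.5 CPM over control replicates 1, 2 and 3 and at 113, 105 and 138 CPM over mutant replicates 1, 2 and 3. Both the lowest and the highest library were mutants, and the group means were 119 CPM ± 11.2 (SD, n = 3) and 119 CPM ± 17.4 (SD, n = 3). Its log2 fold change was -0.01 ± 0.12 (SE, adjusted *p* = 0.996), and its sign changed with the library left out, from -0.13 to 0.08. *Sv2c* encodes a synaptic vesicle glycoprotein that is abundant in dopamine neurons. It was at 125, 146 and 86.3 CPM in controls 1 to 3 and at 64.1, 46.0 and 58.8 CPM in mutants 1 to 3. All mutants were under the lowest control, replicate 3, while the controls themselves spread widely (119 CPM ± 30.2, SD, n = 3, against 56.3 CPM ± 9.31, SD, n = 3, in mutants). The log2 fold change of *Sv2c* was -1.08 ± 0.21 (SE), past the threshold with DESeq2 (adjusted *p* = 2.87e-06) but not with edgeR (adjusted *p* = 0.149). Without control replicate 3 edgeR called it too (log2 fold change -1.27, adjusted *p* = 0.0342), and over all alternatives its adjusted *p* ran from 2.87e-06 to 0.408.

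*Slc6a3* encodes the dopamine transporter, which takes dopamine back into the terminal. Raw counts of it were 293, 441 and 386 in control replicates 1, 2 and 3 and 54, 91 and 76 in mutant replicates 1, 2 and 3. In CPM these were 19.6, 25.7 and 27.7 in controls and 4.46, 5.72 and 5.06 in mutants. The highest mutant library was far under the lowest control library, and within each genotype the spread was small (means of 24.3 ± 4.19 and 5.08 ± 0.631 CPM, SD over 3 libraries). *Slc6a3* fell by 2.25 on the log2 scale (SE 0.17, adjusted *p* = 0.000884 with edgeR), a 4.76-fold lower level. It was called under each of 14 alternatives, with adjusted *p* from 2.05e-23 to 0.0114, and DESeq2 with beta prior, which shrinks fold changes, gave a log2 fold change of -1.514. Leaving out each library in turn gave log2 fold changes from -2.39 to -2.15. In bulk tissue, fewer dopamine neurons and less RNA per neuron cannot be told apart, for this gene or any other.

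*Drd2* encodes the dopamine receptor that also serves as the autoreceptor of many dopamine neurons. Its level was 9.78, 10.7 and 11.5 CPM in controls 1 to 3 and 6.93, 5.59 and 6.26 CPM in mutants 1 to 3. No mutant library reached the lowest control, and the raw counts behind these values ran from 84 to 184. On the log2 scale the fold change was -0.77 ± 0.16 (SE), called by DESeq2 (adjusted *p* = 0.0366) and not by edgeR (adjusted *p* = 0.123), with a range of 0.0365 to 0.51 over the alternatives. Among the other dopamine receptors, *Drd1a* was at 5.74 to 6.98 CPM in controls and 6.22 to 8.91 CPM in mutants, *Drd5* between 0.574 and 1.63 CPM and *Drd3* between 0.666 and 1.58 CPM. *Drd4* had at most 2 counts in a library and was not tested. Of the 5 receptors 4 were tested, and edgeR called 0 of them, with *Drd2* lower and 0 higher at an unadjusted threshold of 0.05 (4.01% and 4.84% of all tested genes), while DESeq2 called *Drd2* alone (0.623% of all lower) and limma voom 0.

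*Maob*, for monoamine oxidase B, breaks down dopamine and is also made by astrocytes and serotonergic neurons. It was at 29.8, 29.7 and 26.5 CPM over control replicates 1, 2 and 3 and 27.7, 19.5 and 21.9 CPM over mutant replicates 1, 2 and 3. Mutant replicate 1 lay within the control range and the other mutants under it. Mutant against control, the log2 fold change was -0.32 ± 0.14 (SE, adjusted *p* = 0.551).

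*Nr4a2*, also called Nurr1, encodes a nuclear receptor that the study counts among transcripts associated with dopaminergic neurons. Its level was 32.2, 29.6 and 23.7 CPM in controls 1 to 3 and 11.8, 14.4 and 7.99 CPM in mutants 1 to 3. Every mutant was under every control, with means of 28.5 CPM ± 4.31 (SD, n = 3) and 11.4 CPM ± 3.22 (SD, n = 3). The log2 fold change of *Nr4a2* was -1.32 ± 0.21 (SE), which DESeq2 called (adjusted *p* = 9.9e-07) and edgeR did not (adjusted *p* = 0.0643). EdgeR's value depended on its settings and crossed the threshold, for example, when every gene with at least 1 count was tested (adjusted *p* = 0.0109), and the alternatives ranged from 9.9e-07 to 0.161. Its relatives *Nr4a1* and *Nr4a3* are orphan receptors that neuronal activity induces. *Nr4a1* gave a log2 fold change of 0.64 ± 0.52 (SE), from 0.22 without mutant replicate 3 to 1.215 without control replicate 1, and *Nr4a3* one of 0.17 ± 0.31 (SE), and both overlapped between genotypes. The vesicle protein relatives of *Sv2c* overlapped as well, with log2 fold changes of -0.16 ± 0.14 (SE) for *Sv2a* and -0.10 ± 0.16 (SE) for *Sv2b*. For these 4 relatives edgeR's adjusted *p* was 0.798 or more, and each but *Nr4a1* changed sign when a library was left out.

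Ratios within a library do not depend on how libraries are scaled. For every 100 counts of *Th*, control replicates 1, 2 and 3 held 36.8, 41.1 and 57.7 counts of *Slc6a3* and mutant replicates 1, 2 and 3 held 6.33, 9.73 and 8.15. The same measure for *Nr4a2* was 60.2, 47.3 and 49.5 in controls and 16.8, 24.5 and 12.9 in mutants. For *Sv2c* it was 234, 234 and 179.8 in controls and 91.1, 78.3 and 94.5 in mutants, over 100 in every control and under 100 in every mutant. *Drd2* gave 18.3, 17.1 and 24.1 per 100 in controls and 9.85, 9.52 and 10.1 in mutants. On the log2 scale, with a pseudocount of 0.5, the mean ratio to *Th* was lower in mutants by a difference of -2.47 for *Slc6a3*, -1.58 for *Nr4a2*, -1.29 for *Sv2c* and -0.9965 for *Drd2*. These 4 numerators were chosen with earlier results of these data known and are the genes that were lower without overlap, so their ratios are a description and no test is read from them. Of the other members, *Maob* was also lower relative to *Th* without overlap (difference -0.554), while *Ddc* (-0.375), *Slc18a2* (-0.239) and *Gch1* (0.0994) overlapped. Each difference against *Th* also holds the log2 fold change of *Th* itself (0.22, not called), and the level of *Maob* in CPM overlapped between genotypes. The share of all genes that were lower relative to *Th* without overlap was not counted. With *Ddc* or *Slc18a2* in place of *Th* the differences were smaller and had the same sign. The differences against *Ddc* were -2.10 for *Slc6a3*, -1.20 for *Nr4a2*, -0.91 for *Sv2c* and -0.62 for *Drd2*.

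**Figure D2:**
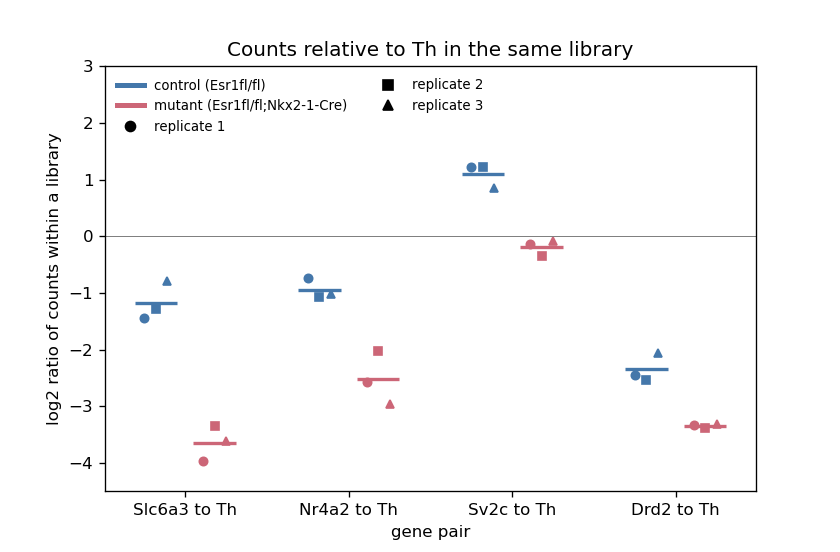
Log2 ratio of the counts of *Slc6a3*, *Nr4a2*, *Sv2c* and *Drd2* to those of *Th* in the same library, with controls in blue, mutants in red, a marker shape for each replicate and a bar at each group mean. The mutant libraries lie under the control libraries for each pair, with the widest gap for *Slc6a3*, whose mean ratio was -1.17 in controls and -3.64 in mutants.

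Levels of different genes were compared per kilobase of exon in the GENCODE annotation. In controls *Slc18a2* was highest at 31.4 CPM per kb ± 2.95 (SD, n = 3), then *Sv2c* at 27.2 ± 6.90 and *Th* at 23.1 ± 3.08, and each of these overlapped its neighbour in this order. A gap followed, then *Maob* at 10.3 ± 0.656 and *Ddc* at 9.56 ± 0.538 CPM per kb, which overlapped each other. *Slc6a3* at 7.04 ± 1.21, *Nr4a2* at 7.02 ± 1.06, *Gch1* at 5.61 ± 1.59 and *Drd2* at 4.19 ± 0.347 CPM per kb closed the order, under *Ddc* in every library and each overlapping the next. In mutants *Slc18a2* at 31.3 ± 4.57 and *Th* at 27.0 ± 2.53 CPM per kb led and overlapped, with *Sv2c* apart at 12.8 ± 2.12. *Ddc* at 8.70 ± 1.45, *Maob* at 8.27 ± 1.51 and *Gch1* at 6.88 ± 0.855 CPM per kb followed, each overlapping the next. Last came *Nr4a2* at 2.81 ± 0.792 and *Drd2* at 2.46 ± 0.263, which overlapped, and *Slc6a3* at 1.47 ± 0.183 CPM per kb, under both in every library.

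The genes lie on 8 chromosomes in the GENCODE annotation of NCBIM37. *Slc6a3* spans 73674195 to 73716120 on the plus strand of chromosome 13, and *Sv2c* spans 96729398 to 96902532 on the minus strand of the same chromosome. *Th* is annotated on chromosome 7 from 150078657 to 150117033 (minus strand), *Ddc* on chromosome 11 from 11714104 to 11798047 (minus strand) and *Slc18a2* on chromosome 19 from 59335368 to 59370502 (plus strand). *Nr4a2* lies on chromosome 2 from 56959241 to 56976414 (minus strand), *Drd2* on chromosome 9 from 49148732 to 49216282 (plus strand), *Gch1* on chromosome 14 from 47773570 to 47809088 (minus strand) and *Maob* on chromosome X from 16286408 to 16394492 (minus strand). In that annotation no exon of the 9 genes overlaps an exon of another gene on either strand.

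The profile over the 6 libraries was compared between genes as the root mean square distance between log2 CPM values, each centred on its own mean, among 14475 tested genes with a mean of at least 1 CPM. The difference between genotypes was kept in these profiles, so the distances largely restate the log2 fold changes. The 5 genes nearest to *Slc6a3* were *Rxfp1* (distance 0.239), *Greb1* (0.411), *Esr1* (0.416), *Crabp1* (0.453) and *Prok2* (0.487). *Nr4a2* came at rank 7 (0.543), *Sv2c* at rank 21 (0.673) and *Drd2* at rank 34 (0.736) of 14474, all closer than *Maob* at rank 770 (0.962). *Ddc* at rank 2369, *Slc18a2* at rank 6154, *Th* at rank 11960 and *Gch1* at rank 13092 were further off. Nearest to *Th* were *Tmem158* (0.0377), *Gadd45a* (0.0449), *Mtag2* (0.0503), *Sgsm2* (0.0524) and *Mtbp* (0.0529). Among the 9, *Slc18a2* at rank 6450 (0.228) was the closest to *Th*, and *Slc6a3* at rank 14425 (1.21) the furthest. The relaxin receptor gene *Rxfp1*, nearest to *Slc6a3*, was at 24.0, 20.8 and 24.6 CPM in controls and 5.12, 4.40 and 4.33 CPM in mutants. It fell by 2.33 on the log2 scale (SE 0.15, adjusted *p* = 0.000297 with edgeR).

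The other pathway genes were 22 in number, in 5 lists of cofactor, breakdown, transporter, receptor and relative genes, and 19 were tested. EdgeR called 0 of them, with 2 higher, *Qdpr* and *Slc6a4*, and 2 lower, *Slc22a3* and *Slc29a4*, at an unadjusted threshold of 0.05 (4.84% and 4.01% of all tested genes), DESeq2 called 1 higher and 0 lower (0.643% and 0.623% of all), and limma voom 0. Their median log2 fold change was 0.16, and 3 were higher and 2 lower without overlap (7.88% of all tested genes in each direction). Without control replicate 2 the middle one of the 19 values was that of *Aldh2*, at 0.020. *Qdpr*, for the reductase that regenerates tetrahydrobiopterin, was at 45.0, 42.1 and 41.5 CPM in controls and 62.5, 65.6 and 58.8 CPM in mutants. All mutants were above all controls, and the log2 fold change was 0.54 ± 0.09 (SE), called by DESeq2 (adjusted *p* = 0.000817) and not by edgeR (adjusted *p* = 0.0567; 0.000817 to 0.262 over the alternatives). Of the other cofactor genes, *Pts*, *Spr*, *Pcbd1* and *Gchfr* overlapped between genotypes, with log2 fold changes from -0.10 for *Pcbd1* to 0.28 for *Gchfr*.

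Among the breakdown genes, *Maoa* and *Aldh2* overlapped, with log2 fold changes of 0.08 and 0.06. That of *Aldh2* ran from 0.0046 without control replicate 3 to 0.15 without control replicate 1. *Aldh1a1*, for a dehydrogenase found in a subset of dopamine neurons and in other cells, was at 198, 158 and 90.8 CPM in controls and 204, 282 and 236 CPM in mutants. Its mutants were all above its controls, but control replicate 1 lay just under the lowest mutant, and edgeR's adjusted *p* was 0.596 for a log2 fold change of 0.69, which ran from 0.43 without control replicate 3 to 0.95 without control replicate 1. *Dbh*, which turns dopamine into noradrenaline, was at 0.407 CPM or less in every library and was not tested. Of the transporter genes, *Slc29a4* (log2 fold change -0.46, or -0.30 without control replicate 2, adjusted *p* = 0.386) and *Slc22a3* (log2 fold change -0.69, adjusted *p* = 0.417), which carry monoamines at low affinity, were lower in mutants without overlap, and neither passed edgeR's test. *Slc18a1* was at 1.01 to 1.90 CPM, and the noradrenaline transporter gene *Slc6a2* at 0.400 CPM or less.

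**Figure D3:**
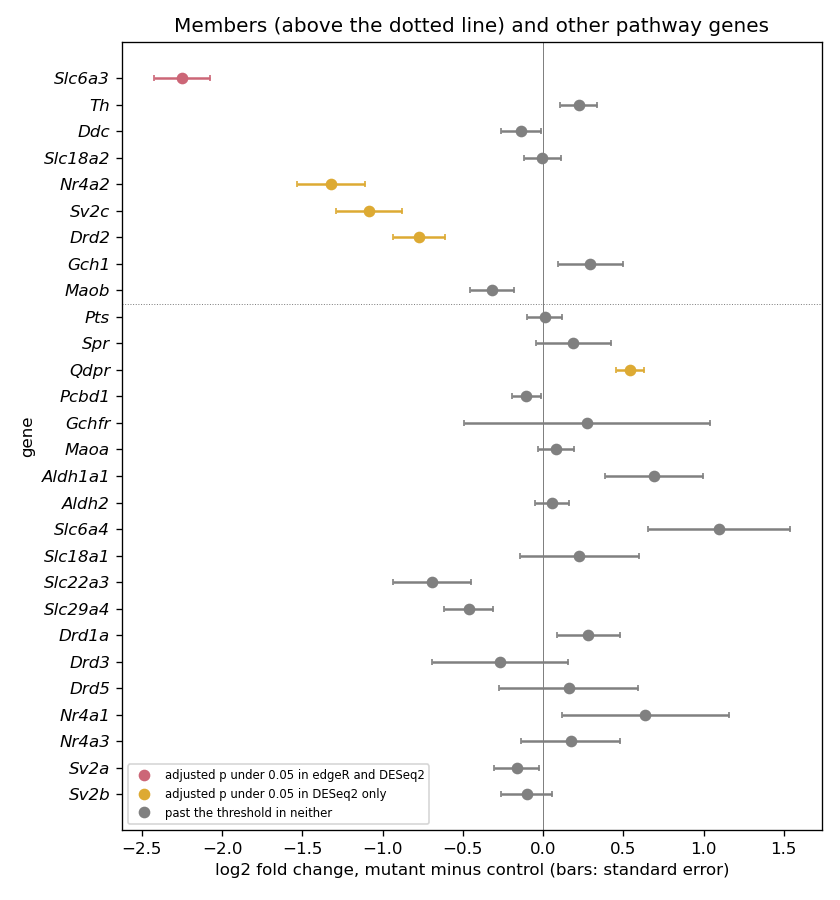
Log2 fold change of mutant against control for the 9 genes (above the dotted line) and the 19 other pathway genes tested, with standard errors as bars. *Slc6a3* is the one gene past the threshold with both edgeR and DESeq2, and *Nr4a2*, *Sv2c*, *Drd2* and *Qdpr* passed it with DESeq2.

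Of 14 genes known to be expressed together with *Th* in arcuate dopamine neurons, all 14 were tested, and edgeR called 1 lower (0.0591% of all tested genes), the deleted gene *Esr1*, and 0 higher, and at an unadjusted threshold of 0.05 put 7 lower (4.01% of all) and 0 higher. DESeq2 called 3 lower (0.623% of all), *Esr1*, *Pgr* and *Prlr*, and 6 were lower without overlap and 0 higher (7.88% of all in each direction), with a median log2 fold change of -0.27. *Prlr*, for the prolactin receptor, was at 408, 444.5 and 376 CPM over control replicates 1, 2 and 3 and at 294, 241 and 277 CPM over mutant replicates 1, 2 and 3. All mutants were under all controls, and the log2 fold change of -0.60 ± 0.10 (SE) was past the threshold with DESeq2 (adjusted *p* = 2.79e-05) and not with edgeR (adjusted *p* = 0.0606; 2.79e-05 to 0.26 over the alternatives). The homeobox genes *Dlx1* (log2 fold change -0.53, adjusted *p* = 0.239) and *Dlx2* (-0.63, adjusted *p* = 0.303) and the GABA synthesis gene *Gad1* (-0.35, adjusted *p* = 0.328) were also lower without overlap and not called by edgeR. *Dlx1* and *Dlx2* were singled out after their values were seen. *Gad2*, the most abundant gene of this list, overlapped between genotypes, with a log2 fold change of -0.13. It ran from -0.22 without control replicate 3 to -0.05 without mutant replicate 2.

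Of 8 genes of the prolactin response 7 were tested, and edgeR called 0, with 2 higher and 1 lower at an unadjusted threshold of 0.05 (4.84% and 4.01% of all tested genes). DESeq2 called *Cish* and *Socs2* higher (0.643% of all) and *Prlr* lower (0.623%), and limma voom called 0. *Cish*, a feedback inhibitor that STAT5 induces, was at 5.03, 5.47 and 7.25 CPM in controls and 14.1, 12.2 and 12.2 CPM in mutants. Its log2 fold change was 1.12 ± 0.18 (SE, adjusted *p* = 0.0567 with edgeR and 0.000284 with DESeq2, from 0.000277 to 0.216 over the alternatives). *Socs2*, of the same family, was at 9.38, 6.86 and 13.8 CPM in controls and 23.7, 19.7 and 21.7 CPM in mutants (log2 fold change 1.12, SE 0.23, adjusted *p* = 0.124 with edgeR and 0.000628 with DESeq2, from 0.000628 to 0.351 over the alternatives). For both genes every mutant library was above every control, and both were picked for naming after their values were seen. Of the 7 tested genes 3 were higher without overlap, *Cish*, *Socs2* and *Socs3*, and 1 lower, *Prlr* (7.88% of all tested genes in each direction). *Socs3* had a log2 fold change of 0.50 and was not called by edgeR (adjusted *p* = 0.608). The kinase and factor genes *Jak2* and *Stat5b* had log2 fold changes of 0.08 and 0.04.

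The estrogen response list had 3 genes, *Esr1*, *Greb1* and *Pgr*, and edgeR called 2 lower (0.0591% of all tested genes) and DESeq2 3 (0.623%), the deleted gene included in both. *Greb1*, a gene that estrogen receptor alpha activates in many tissues, was at 15.9, 16.2 and 16.4 CPM in controls and 5.61, 5.15 and 6.40 CPM in mutants. It fell by 1.50 on the log2 scale (SE 0.15, adjusted *p* = 0.00387 with edgeR). *Pgr*, for the progesterone receptor, was at 110.4, 123 and 117 CPM in controls and 64.1, 80.9 and 80.3 CPM in mutants, with edgeR's adjusted *p* at 0.0567 and a range of 6.68e-05 to 0.198 over the alternatives.

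Markers that set dopamine neurons of the midbrain apart from those of the ARC were at 22 counts or less in every library. Of 7 midbrain markers 0 passed the filter, their summed level was 1.47, 0.989 and 2.08 CPM in controls and 2.81, 2.64 and 1.27 CPM in mutants, and *Lmx1a*, *Foxa1* and *En1* were the most abundant. With at most 9 counts in a library, *En1* and *En2* were higher in mutants without overlap and *Lmx1b* lower. None of them was tested, and 7.88% of all tested genes did not overlap in each direction. *En1* had 3 counts in both control replicate 3 and mutant replicate 1, so their order in CPM came from library size. *En2* and *Lmx1b* were picked after their values were seen. Of 4 noradrenergic markers, led by *Dbh*, *Slc6a2* and *Phox2a*, 0 passed the filter, and their sum was 0.524 to 1.00 CPM in controls and 0.666 to 1.01 CPM in mutants. Of 3 serotonergic markers 1 was tested, *Slc6a4* (0.407 to 0.737 CPM in controls and 0.866 to 1.63 CPM in mutants), and with *Tph2* and *Fev* they summed to 1.29 to 2.07 CPM in the 6 libraries. *Slc6a4* had a log2 fold change of 1.10 ± 0.44 (SE) and did not pass the test (adjusted *p* = 0.501). *Tph2*, with 7 to 17 counts in controls and 4 to 6 in mutants, was lower in mutants without overlap (0.502 to 0.989 and 0.267 to 0.413 CPM) and was not tested. Of all tested genes, 7.88% were lower without overlap.

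Some markers of other cells did not overlap between genotypes, and others set single libraries apart. All 6 oligodendrocyte markers were higher in mutants without overlap (7.88% of all tested genes), with a summed level of 401, 600.5 and 325 CPM in controls and 798, 814 and 794 CPM in mutants. *Mbp*, *Cnp* and *Mobp* were the most abundant of them, edgeR called 1 (0.118% of all in either direction), *Cldn11* (log2 fold change 1.27, adjusted *p* = 0.0313), and DESeq2 4 (0.643% of all tested genes), *Mbp*, *Mog*, *Cldn11* and *Cnp*. Without control replicates 1 or 3 or mutant replicates 2 or 3 the adjusted *p* of *Cldn11* rose to between 0.0758 and 0.151. Without control replicate 2, where edgeR called 46 of all genes, it called 5 of the 6, with *Mbp* at 0.000869 (0.279 with all libraries), *Mobp* at 0.00482 (0.417), *Mog* at 0.00831 (0.0805) and *Cnp* at 0.00936 (0.274) beside *Cldn11* at 0.00237. Of 10 immediate early genes 6 were higher without overlap (7.88% of all tested genes) and 0 lower, with a summed level of 316, 125 and 206 CPM in controls and 327, 306 and 500.1 CPM in mutants, and *Egr1*, *Dusp1* and *Fos* in front. EdgeR called 1 of these (0.118% of all tested genes in either direction), *Dusp1* (log2 fold change 1.03, adjusted *p* = 0.0313, and 0.101 to 0.14 without control replicate 3 or mutant replicates 2 or 3, 0.0545 with limma voom and 0.0526 without robust estimation). DESeq2 called 2 higher (0.643% of all), *Dusp1* and *Npas4*, which was picked after its values were seen (log2 fold change 2.05, adjusted *p* = 5.37e-08 with DESeq2 and 0.065 with edgeR, from 5.37e-08 to 0.238 over the alternatives). The part of oligodendrocyte and immediate early genes in the lower dopamine neuron genes was not tested.

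Of 7 pituitary markers 6 were tested, edgeR, DESeq2 and limma voom called 0, and edgeR put 0 past an unadjusted threshold of 0.05. Control replicate 2 nearly lacked them, with a sum of 6.05 CPM against 762 and 502 CPM in the other controls and 587, 523 and 465 CPM in mutants, and *Cga*, *Tshb* and *Pitx1* were the most abundant. Markers of the ventromedial nucleus, led by *Adcyap1*, *Cbln1* and *Tac1*, summed to 95.2, 209.8 and 151 CPM in controls and 112.5, 258 and 319.9 CPM in mutants, and *Fezf1*, picked for its spread, was at 1.14 CPM in control replicate 1 against 24.2 and 32.8 CPM in the other controls, and at 9.90 CPM in mutant replicate 1 against 47.2 and 52.3 CPM in the other mutants. Of these 6 markers edgeR, DESeq2 and limma voom called 0, and edgeR put 1 lower, *Tac1*, at an unadjusted threshold of 0.05 (4.01% of all tested genes). The other 5 had log2 fold changes above 0, and the median of the 6 was 0.90. Without control replicate 1 the log2 fold changes of *Adcyap1*, *Cbln1* and *Fezf1* were 0.77, 0.49 and 0.36, against 1.05, 0.89 and 0.92 with all libraries. Another of the 5 was at -0.0045 without mutant replicate 2 and -0.052 without mutant replicate 3. Control replicates 1 and 2 and mutant replicate 1 thus stood apart from the others in the sums of these markers. *Tac1* was among those that did not follow the sum. It was at 50.9 CPM in control replicate 1 against 40.1 CPM in control replicate 3, and at 37.0 CPM in mutant replicate 1 against 28.1 CPM in mutant replicate 2. The log2 fold change of *Slc6a3* was -2.39 without control replicate 1 and -2.21 without control replicate 2, that of *Nr4a2* -1.23 and -1.30, that of *Sv2c* -1.05 and -0.91, and that of *Drd2* -0.83 and -0.77. Without mutant replicate 1 the log2 fold changes were -2.17, -1.35, -1.19 and -0.85 in the same order. The part of neighbouring tissue in the other values was not tested.

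Of 7 astrocyte markers, led by *Slc1a2*, *Slc1a3* and *Aqp4*, edgeR, DESeq2 and limma voom called 0, edgeR put 0 past an unadjusted threshold of 0.05, and their sum was 3784, 6534 and 4858 CPM in controls and 4094, 4635 and 6018 CPM in mutants. Of 6 ependymal and tanycyte markers, led by *Vim*, *Rax* and *Foxj1*, the same tests called 0, edgeR put 1 higher, *Vim*, at an unadjusted threshold of 0.05 (4.84% of all tested genes), and they summed to 163, 154 and 171 CPM in controls and 180.5, 198 and 189.7 CPM in mutants. Of 6 arcuate markers edgeR and limma voom called 0, edgeR put 1 higher, *Cartpt*, at an unadjusted threshold of 0.05 (4.84% of all), and DESeq2 called *Cartpt* higher (0.643% of all). *Cartpt*, *Tbx3* and *Pomc* led these, all 6 were tested, and they summed to 894, 870.1 and 805.5 CPM in controls and 1219, 899.8 and 943 CPM in mutants, so the defining genes of the labelled tissue were present in every library.

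Promoter windows from 250 bases before to 50 after the start of transcription were taken from RefSeq (GRCm38.p6, a different build from that of the gene positions above), where 8 of the 9 genes had an entry and *Maob* had none. Stretches of them are shown for *Slc6a3*, *Nr4a2* and *Drd2*, whose libraries did not overlap between genotypes, and for *Th*, *Slc18a2* and *Ddc*, which overlapped. The windows of *Sv2c*, which did not overlap, and of *Gch1*, which did, are not shown. The 8 genes had 9 windows, and a gene was counted when any of its windows held a match. The shares given below are of promoters, not of genes. For *Ddc* only a window that holds the NR4A element is shown. Both strands were searched for GGTCA, the half-site that estrogen receptors and NR4A receptors share, which 40.5% of 32851 promoters of the same length hold. It was found in *Nr4a2* at -238 to -234, in *Drd2* at -61 to -57, in *Slc18a2* at -99 to -95 and in *Ddc* at -73 to -69 and -4 to 1, but not in *Slc6a3*, *Th*, *Sv2c* or *Gch1*. The full palindrome of GGTCA, 3 bases and TGACC, which contains the half-site, was in 0.07% of all promoters and in 0 of the 8 genes. Capitals mark the half-site or its reverse complement in the 250 bases upstream of *Slc6a3* (chr13:73536497-73536746, plus strand), *Nr4a2* (chr2:57124004-57124253, minus strand) and *Drd2* (chr9:49340153-49340402, plus strand), and *Slc6a3* has none.
*Slc6a3*: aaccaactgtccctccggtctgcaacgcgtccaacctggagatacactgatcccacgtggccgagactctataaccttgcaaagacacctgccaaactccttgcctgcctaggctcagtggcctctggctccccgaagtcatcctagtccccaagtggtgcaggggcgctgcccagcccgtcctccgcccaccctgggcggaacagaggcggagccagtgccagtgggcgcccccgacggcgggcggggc
*Nr4a2*: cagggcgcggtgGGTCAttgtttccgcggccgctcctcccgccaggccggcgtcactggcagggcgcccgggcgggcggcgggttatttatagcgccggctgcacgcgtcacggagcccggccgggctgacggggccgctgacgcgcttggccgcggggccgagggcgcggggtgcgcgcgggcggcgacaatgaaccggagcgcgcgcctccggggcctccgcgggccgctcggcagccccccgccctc
*Drd2*: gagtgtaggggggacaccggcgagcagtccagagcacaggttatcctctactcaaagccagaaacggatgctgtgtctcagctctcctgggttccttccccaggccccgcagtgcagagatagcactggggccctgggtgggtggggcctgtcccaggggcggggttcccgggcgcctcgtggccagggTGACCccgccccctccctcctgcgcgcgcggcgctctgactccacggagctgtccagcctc
GC bases made up 66.0% of these 250 upstream bases of *Slc6a3*, 80.0% of those of *Nr4a2* and 68.8% of those of *Drd2*, with 16, 44 and 15 CpG dinucleotides.

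The cyclic AMP response element TGACGTCA, its own reverse complement, was in 1.79% of all promoters and in 2 of the 8 genes, *Th* at -45 to -38 and *Slc18a2* at -4 to 4. It was not in the windows of *Slc6a3*, *Nr4a2*, *Sv2c*, *Drd2*, *Ddc* or *Gch1*. The NR4A element AAAGGTCA, which contains the half-site, was in 1.51% of all promoters and in 1 of the 8 genes, *Ddc*, at -73 to -66. Capitals mark the cyclic AMP response element in *Th* (chr7:142899996-142900245, minus strand) and *Slc18a2* (chr19:59260818-59260881, plus strand), and the reverse complement of the NR4A element in *Ddc* (chr11:11898145-11898244, minus strand).
*Th*: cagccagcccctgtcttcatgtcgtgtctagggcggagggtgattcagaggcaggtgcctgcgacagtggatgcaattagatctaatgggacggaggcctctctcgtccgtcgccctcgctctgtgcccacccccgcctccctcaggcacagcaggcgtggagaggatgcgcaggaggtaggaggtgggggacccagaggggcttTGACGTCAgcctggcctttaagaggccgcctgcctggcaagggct
*Slc18a2*: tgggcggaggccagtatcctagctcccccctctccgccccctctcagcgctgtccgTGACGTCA
*Ddc*: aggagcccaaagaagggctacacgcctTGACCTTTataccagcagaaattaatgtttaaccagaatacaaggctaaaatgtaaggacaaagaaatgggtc
A match describes the letters of these windows and was not tested for binding.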

How the data were processed

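RNA of microdissected ARC was amplified with the Ovation RNA-Seq System V2, and per the submitters' processing notes the authors mapped reads with TopHat2 2.1.0, counted them with HTSeq 0.6 and tested with DESeq2 1.14.1. The deposited values are raw counts per gene symbol, with no normalization. The labels give the build as mm9, while strand setting and gene annotation of the counting are not given in the sources used here. Samples were grouped by genotype and replicate number in the labels. Counts were tested with edgeR 4.0.16 (quasi-likelihood test, robust dispersions, TMM, default low-count filter) in R 4.3.3, fitted on all 24015 symbols, with Benjamini-Hochberg adjustment over the 15236 that passed and a threshold of 0.05. Alternatives were DESeq2 1.42.0 with and without beta prior, limma voom 3.58.1, RLE normalization, no robust estimation, other filters, a replicate block, each library left out, and for ratios other pseudocounts and denominators. The genes named are the 9, *Esr1*, *Prlr*, *Greb1*, *Pgr*, all of the 5 pathway lists, called genes and the 3 most abundant of every other list, and the 5 nearest to *Slc6a3* and *Th*. Outside this rule *Dlx1*, *Dlx2*, *Cish*, *Socs2*, *Socs3*, *En2*, *Lmx1b*, *Mog*, *Npas4* and *Fezf1* were picked after their values were seen. Members and lists were chosen with earlier results of these data known. Of the genes on the planned lists, 2 are not reported here and are left out of list counts and sums. Positions and exon lengths were matched by symbol. No pair of libraries differed by as little as sampling noise (chi-square per degree of freedom 6.60 to 29.6).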

Additional observations from a re-analysis of the deposited data

How the results depend on the processing

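*Slc6a3* stayed past the threshold in each alternative, while the number of genes called depended on the tool. Against 18 genes (9 higher, 9 lower, 1 of the 9 dopamine neuron genes, 0 other pathway genes), DESeq2 called 191 (97 higher, 94 lower, 4, 1), DESeq2 with beta prior 187 (95 higher, 92 lower, 4, 1), and edgeR with no filter but 1 count in some library 106 (49 higher, 57 lower, 2, 1). With the replicate number as a block edgeR called 123 genes (69 higher, 54 lower), 2 of the 9 (*Slc6a3* and *Nr4a2*, the latter at an adjusted *p* of 0.00301) and 1 other pathway gene. Libraries of number 1 deviated together (correlation 0.28) but those of numbers 2 and 3 did not (0.05 and -0.00), and not every library correlated best with its own number, so the numbers were not taken as pairs. Leaving out each library gave 7 (without mutant replicate 3; 9 without mutant replicate 2) to 46 genes (without control replicate 2), 2 to 26 higher, 5 to 20 lower, 1 to 2 of the 9 and 0 other pathway genes. The differences in log2 ratio to *Th* then ran from -2.62 to -2.28 for *Slc6a3*, -1.82 to -1.36 for *Nr4a2*, -1.42 to -1.21 for *Sv2c* and -1.09 to -0.85 for *Drd2*. With a library left out the sign of some uncalled log2 fold changes turned: *Slc18a2* ran from -0.13 to 0.076, *Pts* from -0.062 to 0.10, *Gchfr* from -0.30 to 0.79, *Maoa* from -0.012 to 0.15, *Slc18a1* from -0.033 to 0.36, *Drd3* from -0.42 to 0.062, *Drd5* from -0.13 to 0.57, *Nr4a3* from -0.13 to 0.45, *Sv2a* from -0.25 to 0.0028, *Sv2b* from -0.30 to 0.048, *Stat5b* from -0.030 to 0.11, *Cga* from -0.26 to 1.01, *Tshb* from -0.25 to 1.32, *Slc1a2* from -0.29 to 0.17, *Rax* from -0.42 to 0.12 and *Tbx3* from -0.21 to 0.030. *Pts* was at -0.0018 with no filter but 1 count, DESeq2 with beta prior put *Nr4a2* at -0.87, *Sv2c* at -0.79 and *Drd2* at -0.51, and limma voom put *Cga* at 2.215 and *Tshb* at 1.844. Mean levels of the 9 genes in plain CPM moved by less than their SD. The causes were not tested.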
